A study of Sus scrofa with 8 samples.

Results

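Transcripts of 10 genes for cytokines and interleukin receptors of lymphocytes were followed across a set of porcine B cell lymphoma clones and normal pig splenocytes. The ligands are IL18, CSF1, LTA and LTB, and the receptor chains are IL6R, IL10RA, IL21R, IL4R, IL2RA and IL2RB. They were taken from the reads-per-million table by their symbols, and all 10 were found among its 22366 features. RNA was sequenced in 8 libraries, each made from an equal number of cells. The 6 clones came from tumour cells dissociated from a lymph node (4 clones) or from the spleen (2 clones) and passed through 4 rounds of limiting dilution in culture. The controls were splenocytes enriched on magnets for CD21+ cells, taken as normal B cells, and for CD3+ cells, taken as normal T cells, with 1 library each. The labels give no genotype, breed, age or number of animals, nor whether the clones share a tumour, so p-values measure the spread between clones alone. Every clone had been cultured and the labels record no culture for the controls, so culture and lymphoma cannot be told apart here.

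Interleukins and lymphotoxins carry signals between lymphocytes and the cells around them. In human and mouse, most interleukin receptors pair a chain that binds the ligand with a shared chain: IL2RG, the common gamma chain, serves the receptors for IL-2, IL-4, IL-7, IL-15 and IL-21, IL6ST (gp130) serves IL-6, and IL10RB serves IL-10. These receptors signal through JAK kinases to STAT transcription factors, and SOCS proteins dampen that signal. LTA and LTB, ligands of the TNF superfamily, are made by B and T cells and direct the building of lymph nodes and splenic follicles.

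Levels are counts-per-million (CPM), scaled between libraries by TMM factors, and total counts ran from 16415644 to 27253505 per library. Levels of different genes are not compared with each other, since CPM is not per length. The labelled cell types were checked against defining markers. MS4A1, the B cell surface protein CD20, stood at 352 to 486 CPM in the clones, 1338 in CD21+ and 8.59 in CD3+ cells. CD3E, which marks T cells, stood at 0.243 to 0.570 CPM in the clones, 17.2 in CD21+ and 2530 in CD3+ cells. A list of 12 T cell markers summed to 17.9 to 36.4 CPM in the clones and to 146 CPM in CD21+ cells, which was 1.82% of its sum of 8023 in the CD3+ library. Of 8 detected NK and cytotoxic markers, PRF1 and NCR1 had no count in any clone, and the list summed to 17.8 to 27.1 CPM in the clones, 90.7 in CD21+ and 1558 in CD3+ cells. Most of the sum in the clones was NKG7, at 17.6 CPM or more in every clone, with 7.09 in CD21+ and 122 in CD3+ cells.

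Against the CD21+ library, 8 of the 10 genes passed the test, 3 higher and 5 lower in the clones (edgeR quasi-likelihood test, Benjamini-Hochberg adjustment, adjusted p under 0.05). The background was 67.2% of all 13498 genes tested, 34.8% higher and 32.4% lower, so 8 of 10 is near the share over all genes. Against the CD3+ library 9 of 10 passed, 4 higher and 5 lower, beside a background of 72.0% of 13560 genes, 36.8% higher and 35.1% lower. All 6 clones lay on one side of the CD21+ library for 8 genes and of the CD3+ library for all 10, where 83.1% and 86.0% of all genes did so. Both comparisons use the same 6 clones, so they are not independent, and the lone control library in each was assumed to vary as the clones do. In bulk RNA, fewer cells of a type and less RNA per cell cannot be told apart. The receptor chains IL6R, IL10RA, IL21R, IL4R and IL2RB were below both controls in every clone. The ligands IL18, CSF1 and LTA were above both in every clone, though CSF1 did not pass the test against the CD3+ library.

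**Figure D1:**
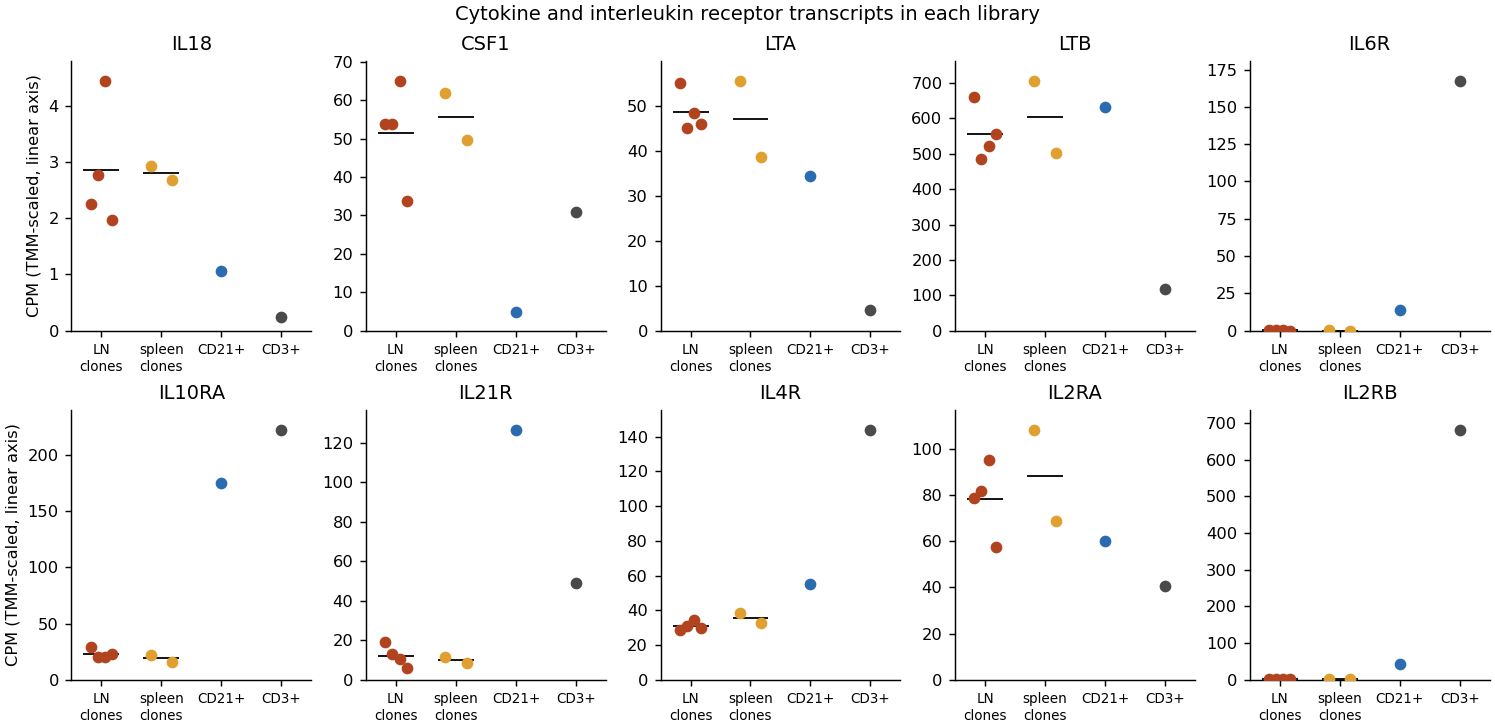
Level of each of the 10 genes in CPM on a linear axis that starts at 0, with 1 point per library and a horizontal line at the mean of the lymph node (LN) and spleen clones. The clones sit above both controls for IL18, CSF1 and LTA, with the lowest clone close to the CD3+ level for CSF1. They sit below both for IL6R, IL10RA, IL21R, IL4R and IL2RB.

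IL18, a cytokine of the IL-1 family that is cut to its active form by caspase-1 and drives interferon gamma production, lies at 9:39839959-39861258 (Sscrofa11.1, as for all positions here). Its level was 2.26, 2.76, 4.43 and 1.96 CPM in lymph node clones 1 to 4 and 2.92 and 2.68 CPM in spleen clones 1 and 2. The CD21+ library held 23 counts, or 1.05 CPM (exact 95% binomial interval 0.667 to 1.58), and the CD3+ library 4 counts, or 0.240 CPM (0.0654 to 0.615). All 6 clones were above both controls, and the clones ranged over 2.26-fold among themselves. IL18 rose by a log2 fold change of 1.42 ± 0.49 (approximate SE) over the CD21+ library (edgeR adjusted p = 0.0298) and by 3.53 ± 0.65 over the CD3+ library (adjusted p = 0.00137). The call against the CD21+ library was lost with limma-voom (adjusted p = 0.0704). In the authors' deposited table of clones against the CD21+ library, its fold change is 2.71 at a false discovery rate of 0.0299.

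The receptor side of the IL-18 system was nearly without counts in the clones. IL18R1, the ligand-binding chain, had 1 count over all 6 clones, with 17 in CD21+ and 174 in CD3+ cells. IL18RAP, the signalling chain, had 0, 2 and 37 counts. CASP1, the gene of caspase-1, averaged 6.46 ± 2.98 CPM (SD, n = 6) in the clones, with 28.1 in CD21+ and 0.901 in CD3+ cells, so that it was lower than in CD21+ cells (log2 fold change -2.13 ± 0.47, adjusted p = 0.00421, edgeR) and higher than in CD3+ cells (2.82 ± 0.80, adjusted p = 0.0123, edgeR). Of 11 tested genes on a list for IL-18, IL-1 and the inflammasome, 3 rose and 6 fell against the CD21+ library, and the median log2 fold change was -0.32 beside 0.05 over all genes. The risers were NLRP3, an inflammasome sensor, IL1RAP and IL1R1, a pair of IL-1 receptor chains. IL1R1 had no count in the CD21+ library and stood at 7.31 ± 2.70 CPM in the clones, at least 52.3-fold higher (against 3 counts in the control), and its call was lost with limma-voom (adjusted p = 0.109). Scaling by total counts gave 4 higher and 4 lower calls on this list against the CD21+ library. In the comparison with CD3+ cells, 2 of the 11 rose, CASP1 and IL1RAP, and 5 fell, NLRP3 among them. IL1R1 did not pass there, and the median log2 fold change was -0.17.

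CSF1, the growth and survival factor of macrophages, lies at 4:110178466-110198232. Lymph node clones 1 to 4 held 53.9, 53.7, 65.0 and 33.7 CPM and spleen clones 1 and 2 held 61.9 and 49.5 CPM, with 4.99 CPM in CD21+ and 31.0 CPM in CD3+ cells. Every clone was far above CD21+ cells, while lymph node clone 4 was close to the CD3+ level. The clones averaged 53.0 ± 11.0 CPM (SD, n = 6), which was 10.6-fold the CD21+ level (log2 fold change 3.40 ± 0.39, adjusted p = 0.000116, edgeR). Against the CD3+ library the log2 difference was 0.76 ± 0.31, with an approximate 95% interval of 0.05 to 1.47, and did not pass after adjustment (adjusted p = 0.0525, edgeR). Without lymph node clone 4 that comparison passed (0.86, adjusted p = 0.00146, edgeR), and it also passed with DESeq2 (adjusted p = 0.0268), without the filter on low counts (adjusted p = 0.0453) and with total-count scaling (1.22, adjusted p = 0.0110).

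CSF1R, the receptor that binds CSF1 and a marker of macrophages, was counted in the clones too. Its level was 38.6 ± 6.82 CPM (28.8 to 48.7) in the clones, 26.6 in CD21+ and 13.1 in CD3+ cells. It passed the test against CD3+ cells (log2 fold change 1.55 ± 0.27, adjusted p = 0.00102, edgeR) and did not against CD21+ cells (0.53 ± 0.24, adjusted p = 0.0806), where it passed without lymph node clone 1 (adjusted p = 0.0204), with all 8 libraries in 1 fit (0.0275) and with total-count scaling (0.83, adjusted p = 0.0151). CD14, a monocyte marker, stood at 0 to 0.114 CPM in the clones. CD163, a macrophage scavenger receptor, had no count there, the only 1 of 10 detected myeloid markers without a count in any clone. The 10 detected myeloid markers, CSF1R among them, summed to 84.0 to 125 CPM in the clones, 246 in CD21+ and 630 in CD3+ cells. The ratio of CSF1 to CSF1R counts was 1.41 ± 0.393 in the clones, 0.187 in CD21+ and 2.37 in CD3+ cells. IL34, the other ligand of that receptor, had 9 counts over the 6 clones, 2 in CD21+ and 4 in CD3+ cells. On a list for colony-stimulating factors, 0 of 5 tested genes rose and 2 fell against the CD21+ library: CSF2RB, the chain shared by the IL-3, IL-5 and GM-CSF receptors (log2 fold change -1.94 ± 0.13, adjusted p = 5.23e-06, edgeR), and FLT3LG, the ligand of FLT3 (-1.47 ± 0.21, adjusted p = 0.000358). The median log2 fold change of the 5 was -1.72. Against the CD3+ library 2 of the 5 rose, CSF1R and CSF2RB (2.62 ± 0.22, adjusted p = 1.37e-05, edgeR), 2 fell, CSF3 and FLT3LG, and the median was 1.55. CSF2RB stood at 16.8 ± 1.68 CPM in the clones, between 64.1 in CD21+ and 2.70 in CD3+ cells.

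LTA and LTB flank TNF within a short stretch of chromosome 7. LTA lies at 7:23696387-23698280 and LTB at 7:23704842-23707036, with 1354 bases from LTA to TNF and 2448 bases from TNF to LTB. The annotated gene LST1 overlaps LTB, and no source used here gives the strandedness of the libraries, so counts of LTB may include reads of LST1.

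LTA, a secreted ligand that also forms a membrane complex with LTB, was counted at 55.1, 45.0, 48.3 and 46.0 CPM in lymph node clones 1 to 4 and at 55.5 and 38.7 CPM in spleen clones 1 and 2. The CD21+ library held 34.3 CPM and the CD3+ library 4.56 CPM. All clones were above both controls, narrowly so for spleen clone 2 against CD21+ cells. Against CD3+ cells LTA rose by a log2 fold change of 3.39 ± 0.26 (adjusted p = 8.27e-06, edgeR). Against CD21+ cells the rise was 0.48 ± 0.19 (adjusted p = 0.0482, edgeR), and this call was lost under 8 of 12 alternatives. It was lost on leaving out any single clone other than spleen clone 2 (adjusted p from 0.0502 to 0.0748), with RLE size factors (0.0605), with limma-voom (0.0662) and with all 8 libraries in 1 fit (0.0656).

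LTB anchors the lymphotoxin complex in the membrane. Lymph node clones 1 to 4 held 659.8, 485, 523 and 557 CPM and spleen clones 1 and 2 held 706 and 504 CPM, beside 632 CPM in CD21+ and 116 CPM in CD3+ cells. The CD21+ value thus fell inside the range of the clones, with 2 of 6 clones above it. The log2 difference from CD21+ cells was -0.15 ± 0.20 (approximate 95% interval -0.60 to 0.31, adjusted p = 0.529, edgeR), and with total-count scaling it was 0.15. LTB was higher than in CD3+ cells by a log2 fold change of 2.29 ± 0.24 (adjusted p = 5.57e-05, edgeR).

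The levels of LTB and LTA stood in a similar ratio in every clone, from 10.8 to 13.0. The ratio of LTB to LTA counts was 11.9 ± 0.939 over the 6 clones (SD), 18.4 in CD21+ and 25.5 in CD3+ cells. TNF, an inflammatory cytokine and the gene between them, was at 92.4 ± 17.0 CPM in the clones, 88.6 in CD21+ and 54.2 in CD3+ cells. Its log2 difference was 0.06 ± 0.24 against CD21+ cells (adjusted p = 0.850, edgeR) and 0.76 ± 0.26 against CD3+ cells (adjusted p = 0.0269, edgeR). The ratio of TNF to LTA counts was 1.91 ± 0.110, 2.58 and 11.9 in clones, CD21+ and CD3+ libraries.

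Most of the tested receptors and non-canonical NF-kB genes downstream of lymphotoxin were lower in the clones than in CD21+ cells. LTBR, the receptor of the membrane complex, had no count in any clone and 24 in the CD21+ library, at least 53.4-fold lower against 3 counts over the 6 clones, a call lost with DESeq2 (adjusted p = 0.0570). TNFRSF1A, a TNF receptor that also binds LTA, had 3 counts over the clones, 35 in CD21+ and 1654 in CD3+ cells. TNFRSF1B, the other TNF receptor, was at 22.6 ± 2.71, 29.3 and 106 CPM; its log2 difference from CD21+ cells was -0.38 ± 0.16 (adjusted p = 0.0700, edgeR), and it passed without lymph node clone 3 (0.0469) or clone 4 (0.0482). The median log2 fold change of 8 tested genes on a list for lymphotoxin and TNF was -1.92 against the CD21+ library. Of the 8, 0 rose and 6 fell, beside 34.8% and 32.4% over all genes. Among them BIRC3, an NF-kB target that restrains cell death, fell by 2.07 ± 0.13 on the log2 scale (adjusted p = 3.75e-06, edgeR). The others were LTBR, TNFRSF1A, the kinase MAP3K14 and the NF-kB subunits NFKB2 and RELB. Against CD3+ cells 1 rose (TNF), 5 fell and 2 did not pass (NFKB2 and RELB), while LTBR was not among the 8 genes tested. With total-count scaling 2 rose and 5 fell there. The 7 markers of stroma and endothelium also summed to less in the clones, at 10.8 to 25.6 CPM beside 243 in CD21+ and 117 in CD3+ cells, with no count of the collagen gene COL3A1 in any clone, and the myeloid sum given above was lower as well. The part of such cells in these differences was not tested.

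**Figure D2:**
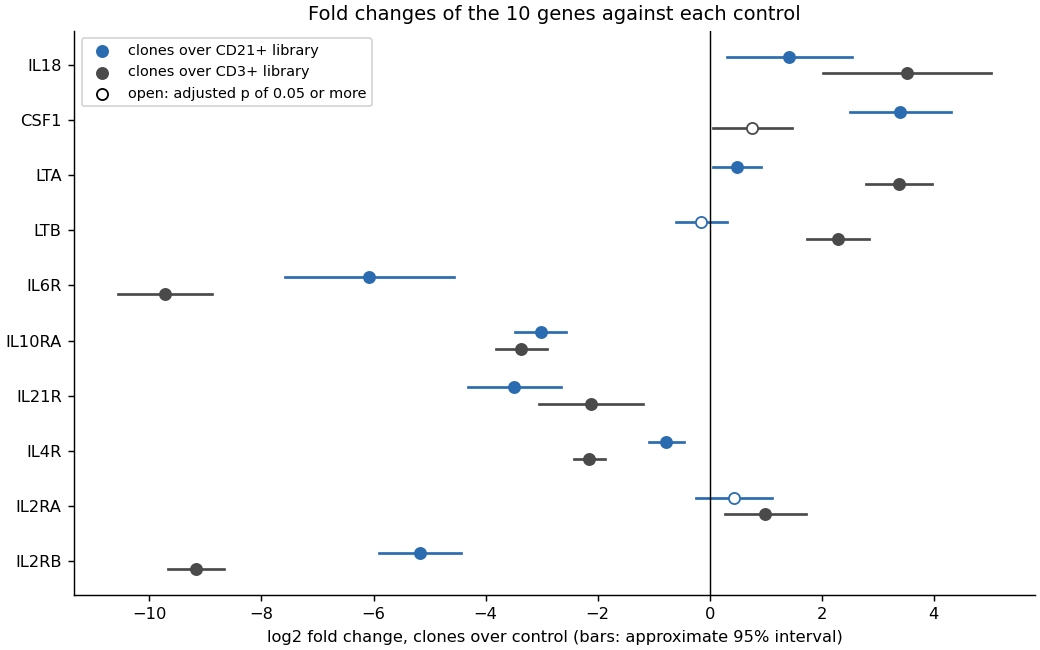
Log2 fold change of the clones over the CD21+ library (blue) and over the CD3+ library (grey) for each gene, with approximate 95% intervals as bars and open points where the adjusted p was 0.05 or more. LTB and IL2RA against CD21+ cells and CSF1 against CD3+ cells did not pass, and IL6R and IL2RB lie farthest to the left at -9.73 and -9.17 against CD3+ cells.

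IL6R, the chain that binds interleukin-6, lies at 4:95322426-95381393 and was close to undetected in the clones. Lymph node clones 1 to 4 held 8, 9, 4 and 3 counts and spleen clones 1 and 2 held 4 and 0 counts, against 299 in CD21+ and 2787 in CD3+ cells. In CPM this was 0 to 0.451 (mean 0.213 ± 0.184, SD, n = 6), 13.7 and 167. No clone came near either control, and the clone mean was 1.56% of the CD21+ level and 0.127% of the CD3+ level. The fitted log2 fold changes were -6.08 ± 0.66 (adjusted p = 7.82e-05, edgeR) and -9.73 ± 0.36 (adjusted p = 1.87e-07, edgeR).

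IL6ST, the shared gp130 chain, was well detected in the clones. It stood at 52.3 ± 4.09 CPM in the clones, 18.3 in CD21+ and 373 in CD3+ cells, higher than in CD21+ cells (log2 fold change 1.51 ± 0.13, adjusted p = 2.62e-05, edgeR) and lower than in CD3+ cells (-2.84 ± 0.09, adjusted p = 1.08e-07, edgeR). IL6, the ligand, had 3 counts over the 6 clones, 69 in CD21+ and 0 in CD3+ cells. Of 10 tested genes of the IL-6 and gp130 family, 3 rose (IL6ST, CNTFR and CLCF1) and 4 fell (IL6, OSM, IL27RA and EBI3) against CD21+ cells, with a median log2 fold change of 0.50. EBI3, a subunit of IL-27, fell by 4.93 ± 0.41 on the log2 scale (adjusted p = 1.77e-05, edgeR) and OSM, the cytokine oncostatin M, by 3.19 ± 0.41 (adjusted p = 0.000213). With the CD3+ library as control, 1 of 9 tested genes of the family rose and 6 fell, with a median log2 fold change of -2.84. IL6ST and CLCF1 were among those that fell there, and CNTFR did not pass.

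IL10RA, the ligand-binding chain of the IL-10 receptor, lies at 9:45310527-45324557. Its level was 29.5, 20.3, 19.9 and 22.5 CPM in lymph node clones 1 to 4 and 22.3 and 16.04 CPM in spleen clones 1 and 2, with 175 CPM in CD21+ and 222 CPM in CD3+ cells. The highest clone was far below either control. IL10RA was 8.05-fold lower than in CD21+ cells (log2 fold change -3.02 ± 0.20, adjusted p = 5.37e-06, edgeR) and 10.2-fold lower than in CD3+ cells (-3.36 ± 0.20, adjusted p = 2.1e-06, edgeR). Its partner chain IL10RB fell to 64.3 ± 15.2 CPM from 192 in CD21+ cells (-1.58 ± 0.26, adjusted p = 0.000768, edgeR); the difference between the 2 chains was not tested. The ratio of IL10RB to IL10RA counts was 2.99 ± 0.584 in the clones, 1.10 in CD21+ and 0.644 in CD3+ cells, so every clone (2.29 to 3.66) was above both. IL10, the anti-inflammatory ligand, was at 3.64 ± 0.997 CPM in the clones and 5.81 in CD21+ cells (-0.68 ± 0.39, adjusted p = 0.154, edgeR). On the IL-10 family list, 0 of 4 tested genes rose and 2 fell against CD21+ cells, IL10RB and IL20RB, and the median log2 fold change was -1.46. IL20RB is a receptor chain of the family with 22 counts over the clones. Its call against CD21+ cells was lost with DESeq2 (adjusted p = 0.0936), without lymph node clone 3 (0.0572) and without spleen clone 2 (0.0513). With the CD3+ library as control, 0 of the 4 rose and 3 fell, IL10, IL10RB and IL20RB, with a median of -1.38. The IL10RB call there was lost with total-count scaling (adjusted p = 0.0566, edgeR).

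IL21R and IL4R are neighbours on chromosome 3, at 3:19447488-19489201 and 3:19526343-19576792, with 37141 bases between them. IL21R binds interleukin-21, a cytokine that drives B cells towards plasma cells, and IL4R binds interleukin-4, which promotes class switching. IL21R was counted at 19.0, 12.9, 10.4 and 6.03 CPM in lymph node clones 1 to 4 and at 11.6 and 8.50 CPM in spleen clones 1 and 2, against 126 CPM in CD21+ and 49.1 CPM in CD3+ cells. All clones were below both controls, with a 3.15-fold range among the clones, the widest of the 9 genes that had counts in every clone. It fell by 3.49 ± 0.36 on the log2 scale against CD21+ cells (adjusted p = 6.05e-05, edgeR) and by 2.12 ± 0.40 against CD3+ cells (adjusted p = 0.00167, edgeR).

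IL4R had the smallest relative spread of the 10 genes among the clones. Lymph node clones 1 to 4 held 28.9, 31.1, 34.4 and 29.9 CPM and spleen clones 1 and 2 held 38.3 and 32.8 CPM, with 55.4 CPM in CD21+ and 144 CPM in CD3+ cells. Every clone was below both controls. The clones had 58.7% of the CD21+ level (log2 fold change -0.77 ± 0.14, adjusted p = 0.0012, edgeR) and 22.7% of the CD3+ level (-2.15 ± 0.12, adjusted p = 1.7e-06, edgeR). The ratio of IL4R to IL21R counts ran from 1.52 to 4.96 in the clones, with 0.438 in CD21+ and 2.93 in CD3+ cells, so the CD3+ value lay within the clones' range.

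Against CD21+ cells, 2 other genes of the common gamma chain list, IL13RA1 and IL7R, rose, while IL2RG, which pairs with IL21R and IL4R, fell (log2 fold change -1.31 ± 0.09, adjusted p = 7.21e-06, edgeR). IL13RA1, which pairs with IL4R in the receptor for IL-4 and IL-13, rose to 69.0 ± 16.6 CPM from 4.89 in CD21+ and 1.68 in CD3+ cells (log2 fold changes 3.81 ± 0.47 and 5.34 ± 0.57, adjusted p = 0.000166 and 5.47e-05, edgeR). The ratio of IL13RA1 to IL4R counts was 2.12 ± 0.495 in the clones, 0.0883 in CD21+ and 0.0117 in CD3+ cells. IL7R, the IL-7 receptor chain of B cell precursors and T cells, rose to 86.9 ± 21.9 CPM from 1.14 in CD21+ cells (6.24 ± 0.53, adjusted p = 1.94e-05, edgeR), while CD3+ cells held 241 (-1.48 ± 0.26, adjusted p = 0.0011, edgeR). The ligands IL2, IL4 and IL21 had no count in any clone, and IL15 had 35 counts over the 6 clones. IL2 and IL4 also had none in the CD21+ library, against 9 each in the CD3+ library. Compared with CD3+ cells, IL15 and IL21 passed as lower, a call of IL21 lost with DESeq2 (adjusted p = 0.0621). No count allows for up to 3 counts per library, 0.104 to 0.169 CPM in the clones.

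IL2RA and IL2RB, both chains of the interleukin-2 receptor, had unlike patterns. IL2RA (CD25, at 10:64948149-65001320) raises the affinity of the receptor, and IL2RB (at 5:10610094-10650315) carries signals of both IL-2 and IL-15 together with IL2RG. IL2RA was at 78.7, 82.0, 95.4 and 57.3 CPM in lymph node clones 1 to 4 and at 108 and 68.6 CPM in spleen clones 1 and 2, beside 60.2 CPM in CD21+ and 40.8 CPM in CD3+ cells. All clones but lymph node clone 4 were above CD21+ cells, and all 6 were above CD3+ cells. The log2 difference from CD21+ cells was 0.44 ± 0.30 (approximate 95% interval -0.24 to 1.12, adjusted p = 0.220, edgeR). Against CD3+ cells IL2RA was higher by a log2 fold change of 0.99 ± 0.31 (adjusted p = 0.0202, edgeR). FOXP3, the factor of regulatory T cells, which carry IL2RA, stood at 0.0758 to 0.357 CPM in the clones, 0.229 in CD21+ and 19.5 in CD3+ cells. The list of 4 regulatory T cell markers, FOXP3 among them, summed to 90.3 to 160 CPM in the clones, 111 in CD21+ and 341 in CD3+ cells. FOXP3 thus made up little of that sum in the clones, and a sum does not show which of the other markers carried it.

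IL2RB was counted at 1.52, 1.62, 1.63 and 0.928 CPM in lymph node clones 1 to 4 and at 0.730 and 0.838 CPM in spleen clones 1 and 2. The CD21+ library held 43.0 CPM and the CD3+ library 680.0 CPM, and every clone was below both by a wide margin. The log2 fold changes were -5.17 ± 0.32 (adjusted p = 3.69e-06, edgeR) and -9.17 ± 0.22 (adjusted p = 2.21e-08, edgeR), or 2.81% and 0.178% of the control levels. In the CD21+ library IL2RB stood at 6.33% and IL6R at 8.17% of their CD3+ levels, beside 1.82% for the summed T cell markers and 5.82% for the NK and cytotoxic markers. What part of the CD21+ level of these genes came from T or NK cells in that library was not tested.

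The balance of the IL-2 receptor chains was compared between libraries by the ratio of their counts. For IL2RA to IL2RB it was 50.7 to 61.8 in the lymph node clones, 148 and 81.9 in spleen clones 1 and 2, 1.40 in CD21+ and 0.0600 in CD3+ cells. The ranges of the clones and controls did not overlap. IL2RG, the third chain of the receptor, fell to 131 ± 8.41 CPM from 325 in CD21+ and 401 in CD3+ cells (log2 fold changes -1.31 ± 0.09 and -1.62 ± 0.09, adjusted p = 7.21e-06 and 1.54e-06, edgeR). The ratio of IL2RG to IL2RB counts was 122 ± 47.0 in the clones, 7.55 in CD21+ and 0.590 in CD3+ cells. Of 5 tested genes on the common gamma chain list, IL7R and IL13RA1, the partner of IL4R, rose against CD21+ cells. IL2RG and IL7, the ligand of IL7R, fell, and the median log2 fold change of the 5 was -1.31. IL15 was the fifth (-1.46 ± 0.71, adjusted p = 0.0998, edgeR) and passed without lymph node clone 1 (adjusted p = 0.0464). With the CD3+ library as control, 2 of 7 tested genes on this list rose, IL7 and IL13RA1, and 5 fell, with a median of -1.62.

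**Figure D3:**
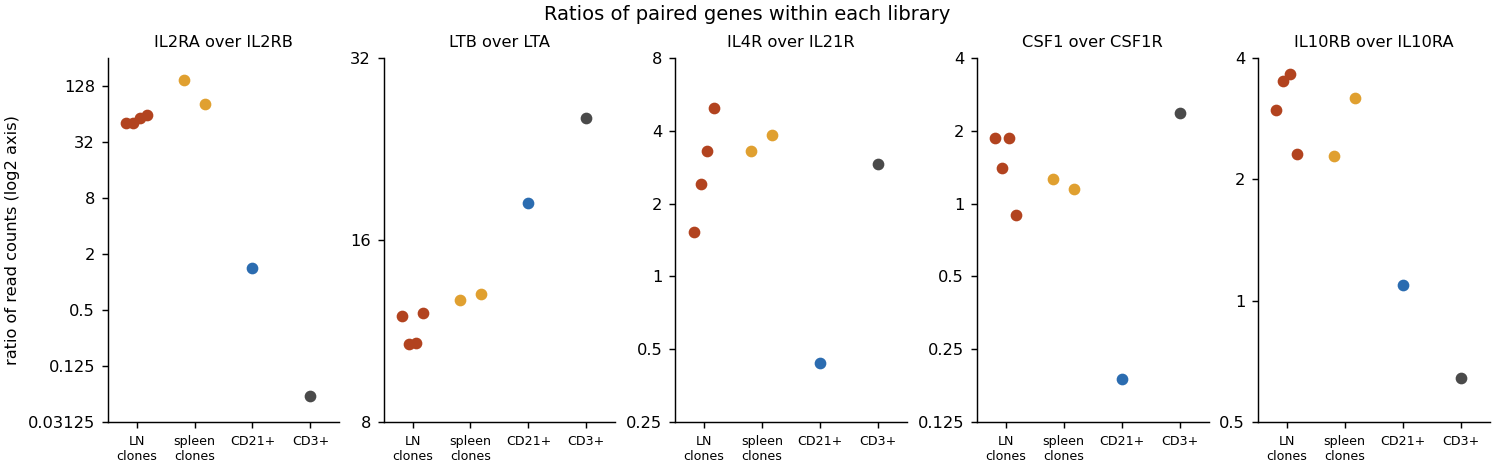
Ratio of read counts of paired genes within each library, on a log2 axis, with 1 point per library. IL2RA over IL2RB separates the clones (50.7 to 148) from the CD21+ (1.40) and CD3+ (0.0600) libraries, LTB over LTA is lower in the clones than in both, IL10RB over IL10RA is higher, and for IL4R over IL21R the CD3+ value of 2.93 lies among the clones.

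Downstream of these receptors, most JAK and STAT genes were lower in the clones. Of 11 genes, JAK1 and STAT5B rose and 8 fell against the CD21+ library, with a median log2 fold change of -1.13 beside 0.05 over all genes. JAK1, the kinase shared by most of these receptors, stood at 674 ± 96.4 CPM in the clones, 294 in CD21+ and 611 in CD3+ cells (against CD21+ cells 1.19 ± 0.20, adjusted p = 0.000884, edgeR). JAK3, the kinase bound to the common gamma chain, fell to 147 ± 22.3 CPM from 421 in CD21+ and 616 in CD3+ cells (-1.52 ± 0.17 and -2.07 ± 0.17, adjusted p = 0.0001 and 1.14e-05, edgeR). STAT6, which carries the IL-4 signal, fell to 110 ± 7.37 CPM from 239 in CD21+ cells (-1.13 ± 0.10, adjusted p = 2.03e-05, edgeR). The targets of IL-2 and IL-7 signals split, with STAT5A at -0.95 ± 0.08 (adjusted p = 1.34e-05) and STAT5B at 0.42 ± 0.08 (adjusted p = 0.00201, edgeR).

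STAT4, a factor of T and NK cells, fell furthest of the 11, to 0.558 ± 0.151 CPM from 14.4 in CD21+ and 186 in CD3+ cells (log2 fold changes -4.69 ± 0.29 and -8.38 ± 0.16, adjusted p = 3.56e-06 and 7.19e-09, edgeR). STAT2, a factor of interferon signalling, fell by 2.49 ± 0.18 on the log2 scale against CD21+ cells (adjusted p = 8.27e-06, edgeR). STAT3, which carries the IL-6, IL-10 and IL-21 signals, was at 162 ± 10.9 CPM in the clones and 181 in CD21+ cells (-0.16 ± 0.10, adjusted p = 0.198, edgeR), and with total-count scaling its log2 difference was 0.14. Against CD3+ cells 10 of 11 fell and 0 rose. With total-count scaling 7 fell and 1 rose there, as JAK1 passed (0.59, adjusted p = 0.0112), STAT3 and STAT6 no longer passed (-0.17 and -0.27, adjusted p = 0.194 and 0.0630) and TYK2 moved to 0.01.

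**Figure D4:**
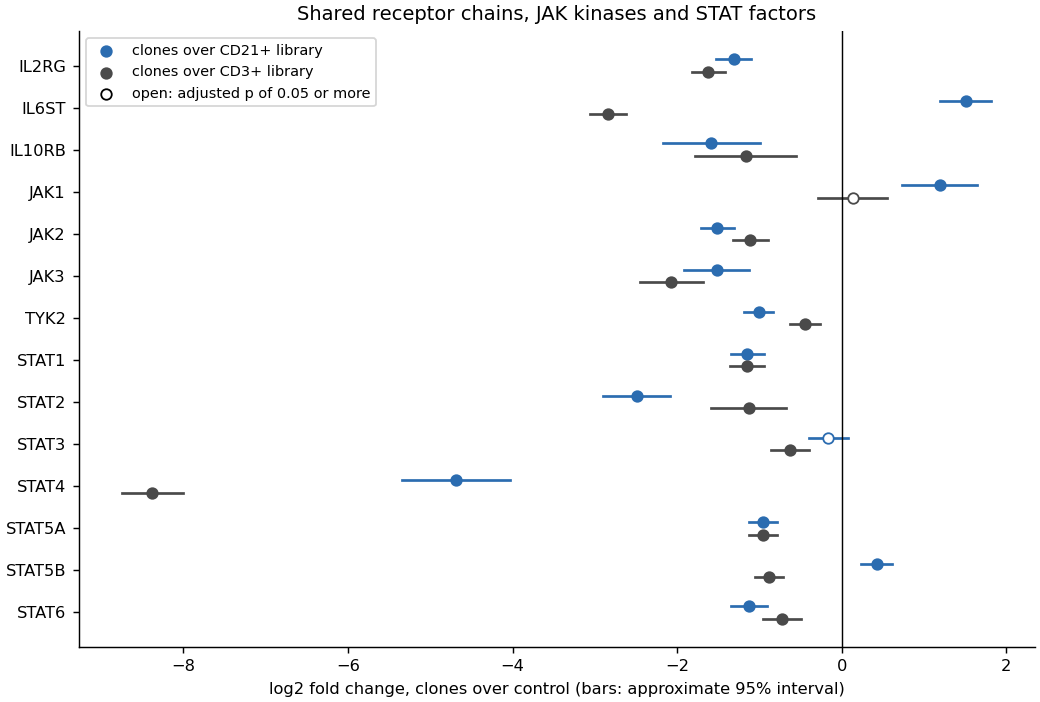
Log2 fold change of the clones over the CD21+ library (blue) and the CD3+ library (grey) for shared receptor chains, JAK kinases and STAT factors, with approximate 95% intervals as bars and open points where the adjusted p was 0.05 or more. IL6ST, JAK1 and STAT5B lie right of 0 against CD21+ cells, and STAT4 lies farthest left in both comparisons.

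SOCS3, an inhibitor induced by IL-6 and other STAT3 signals, was nearly absent from the clones. It stood at 0.207 ± 0.0722 CPM, beside 42.6 in CD21+ and 276 in CD3+ cells (log2 fold changes -7.63 ± 0.25 and -10.32 ± 0.14, adjusted p = 1.67e-07 and 1.58e-09, edgeR). CISH, induced by STAT5, fell by 1.21 ± 0.21 against CD21+ cells (adjusted p = 0.001) and SH2B3, an adaptor that restrains JAK2, by 2.32 ± 0.11 (adjusted p = 1.13e-06, edgeR). Of 17 tested inhibitors of cytokine signals, 3 rose (SOCS5, SOCS6 and PIAS3), 7 fell and 7 did not pass, with a median log2 fold change of -0.13. With total-count scaling the split was 6 higher and 6 lower.

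Of 11 genes known to be induced by interleukin signals in B cells, 2 rose (BCL6 and GFI1) and 5 fell against the CD21+ library, with a median log2 fold change of -0.18. PRDM1, the master regulator of plasma cells and a target of IL-21, stood at 0.786 ± 0.261 CPM in the clones, 14.3 in CD21+ and 41.4 in CD3+ cells (against CD21+ cells -4.15 ± 0.34, adjusted p = 1.57e-05, edgeR). Plasma cell markers, PRDM1 among them, summed to 98.4 to 113 CPM in the clones, 1710 in CD21+ and 490 in CD3+ cells, and their part in the PRDM1 difference was not tested. MCL1, a survival gene, fell by 2.07 ± 0.14 (adjusted p = 5.49e-06, edgeR), and GFI1, a transcriptional repressor, rose by a log2 fold change of 2.08 ± 0.23 (adjusted p = 8.97e-05, edgeR). Against CD3+ cells 6 of the 11 rose, BCL6 among them, and 5 fell, among them GFI1, MCL1 and PRDM1.

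Over all 10 lists, which leave out the 10 genes themselves, 100 genes were tested against the CD21+ library, of which 19 rose, 50 fell and 31 did not pass. Over all genes tested there, 67.2% were called, 34.8% as higher and 32.4% as lower. Against the CD3+ library 22 of 104 rose and 60 fell, where 72.0% of all genes were called, 36.8% as higher and 35.1% as lower. On the list of other cytokines and receptors, 4 of 18 rose and 8 fell against CD21+ cells, with a median log2 fold change of -0.87. IFNGR2, a chain of the interferon gamma receptor, fell by 2.93 ± 0.29 on the log2 scale (adjusted p = 5.11e-05, edgeR), and TGFB3, a TGF-beta ligand, rose by 2.60 ± 0.37 (adjusted p = 0.000355, edgeR). IL17RB, an IL-25 receptor chain, had no count in the CD21+ library and 69 over the 6 clones. With the CD3+ library as control, 5 of 21 tested genes on this list rose and 12 fell, with a median of -1.72. TGFB3 rose there too, while IFNGR2 and IL17RB did not pass.

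**Figure D5:**
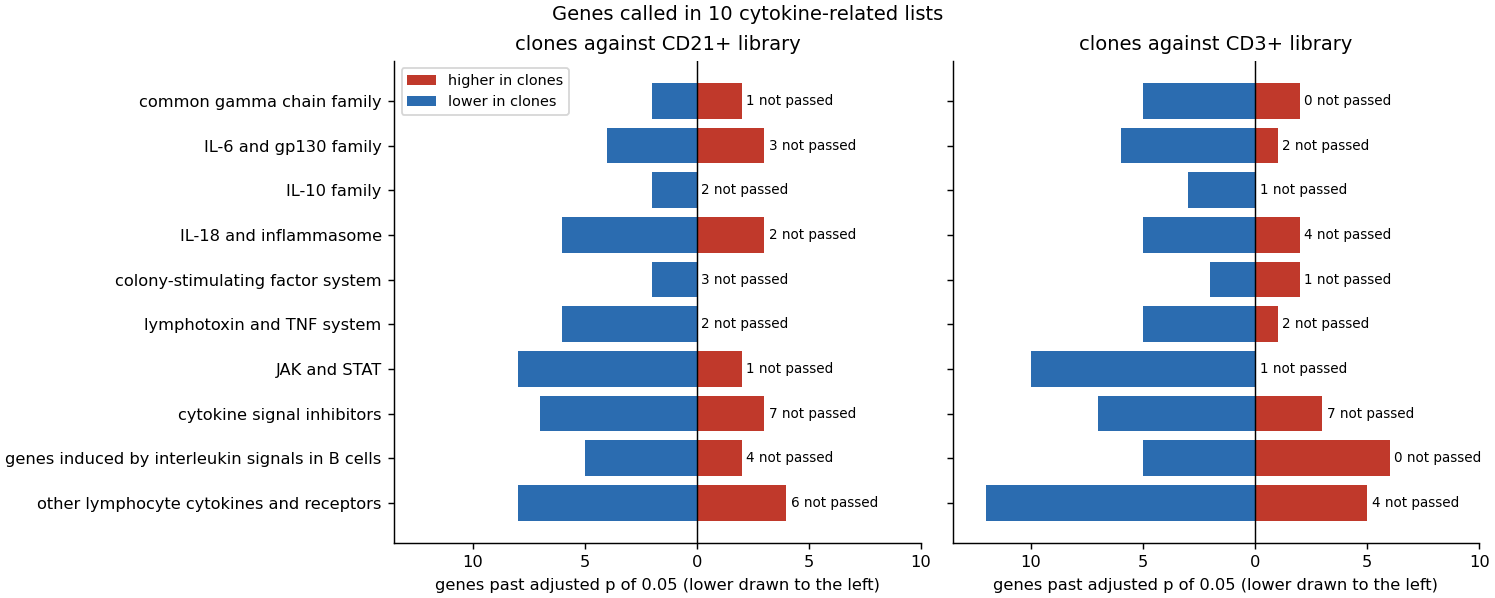
Number of genes on each of 10 lists that passed an adjusted p of 0.05, higher in the clones (red, to the right) or lower (blue, to the left), against each control library, with the number that did not pass written beside the bars. Against CD21+ cells the lymphotoxin and TNF list has 6 lower and 0 higher, and the JAK and STAT list 8 lower and 2 higher.

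Lymph node clones were then compared with spleen clones. None of the 10 passed (edgeR, smallest adjusted p = 0.942), and the background was 0.0% of 12580 genes, with 605 genes (4.81%) and 1 of the 10 at an unadjusted p under 0.05 and 20 called by DESeq2. IL2RB was the 1 gene of the 10 whose groups did not overlap, where 15.5% of all genes did not, with 1.42 ± 0.334 CPM (SD, n = 4) in lymph node and 0.784 ± 0.0762 CPM (SD, n = 2) in spleen clones. Its log2 difference was 0.86 ± 0.34 (edgeR), which passed before adjustment for multiple tests and did not after it (adjusted p = 0.942). For the 8 genes other than IL6R and IL2RB the approximate 95% intervals of the log2 difference lay between -0.79 and 1.23. IL6R rested on so few counts that its interval ran from -0.74 to 4.33.

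Among the clones, the spread of all 10 genes was wider than counting alone gives. The coefficient of variation over the 6 clones was 10.5% for IL4R, 13.4% for LTA and 15.7% for LTB, beside 3.54%, 2.93% and 0.847% from counting. It was 38.8% for IL21R, 30.3% for IL18 and 34.8% for IL2RB, beside 6.14%, 12.0% and 18.7%. Lymph node clone 4 was the lowest of the 6 clones for IL18, CSF1, IL21R and IL2RA.

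The controls differed from each other at 8 of the 10 genes by 2-fold or more, beside 30.6% of the 11963 genes at 1 CPM or more in either, with no test as each is 1 library. IL18, LTA, LTB and IL21R were higher in the CD21+ library, by 4.38-fold, 7.52-fold, 5.43-fold and 2.57-fold. CSF1, IL6R, IL4R and IL2RB were higher in the CD3+ library, by 6.21-fold, 12.2-fold, 2.59-fold and 15.8-fold. The mean of the clones was the highest of the 3 levels for IL18, CSF1, LTA and IL2RA and the lowest for IL6R, IL10RA, IL21R, IL4R and IL2RB, and for LTB it lay between the controls.

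For each gene, the genes with the most similar level over the 8 libraries were found by Pearson's r of log2(CPM + 1) among 13040 genes, as a description of 3 kinds of library and no more. IL6R and IL2RB were closest to each other (r = 0.998), and the next for IL2RB was CCR7, the homing receptor of naive lymphocytes (r = 0.998). LTA was closest to PIK3C2B and to MEF2C, a transcription factor of B cells (r = 0.993 for both). The closest named gene was SEL1L for IL18 (r = 0.992), GMPR for CSF1 (r = 0.995), SEC24C for LTB (r = 0.989), CDC42SE1 for IL10RA (r = 0.997), MROH1 for IL21R (r = 0.998) and ST3GAL5 for IL4R (r = 0.995). IL2RA had the weakest match, C1orf216 (r = 0.966).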

How the data were processed

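Paired reads were taken from 8 libraries. The submitters' processing notes name Trimmomatic, Bowtie2 and edgeR, with no versions, and the study's design text names Sscrofa11.1; no source used here gives the counting tool, annotation or strandedness. Per the file headers, the authors deposited read counts per gene for 7 libraries with a signed fold change (used as a score) and p-values against the CD21+ library, and a table of counts and reads-per-million (RPM) for all 8 libraries. The 7 shared libraries held identical counts, and 2 lines without a feature ID were left out. Of 6841 features named by Ensembl ID alone, 877 were given a symbol from a gene name table, and 26 were left because the symbol was taken. Positions come from the RefSeq gene table of Sscrofa11.1.

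Counts were tested with edgeR 4.0.16 (quasi-likelihood, TMM, filterByExpr by group, two-sided) in R 4.3.3, with Benjamini-Hochberg adjustment over all genes tested and a threshold of 0.05. Each control was fitted separately with the 6 clones. The SE of a log2 fold change was approximated as its size divided by the root of its F statistic, and intervals take a t quantile with the degrees of freedom of the fit; neither is independent of the test. A group with no count was set to 3 counts over the group, and fitted values are not given for such genes. Setting them to this bound left every list median against CD21+ cells as it was. The binomial intervals of control levels, the ratios set against 3 counts and the floors cover counting error only. Intervals of log2 fold changes also take in the spread between clones. Alternatives were RLE size factors, total-count scaling, no filter, DESeq2 1.42.0, limma-voom (limma 3.58.1), all 8 libraries in 1 fit, each clone left out, and a block on clone number. The code was tested on simulated data with 200 changed genes.

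The 10 genes, the 10 gene lists and the marker lists were chosen with earlier results of these data known. Of each list the text names the shared chains, JAK and STAT genes, direct ligands and receptors of the 10 genes, and the 3 genes with the largest log2 fold change past the threshold against CD21+ cells. Other genes of short counts (CASP1, NLRP3, IL1RAP, CNTFR, CLCF1, IL27RA, MAP3K14, NFKB2, RELB, SOCS5, SOCS6, PIAS3 and BCL6) were named after their values were seen. So were the markers CD163, PRF1, NCR1 and COL3A1, which had no count in any clone. Not in the files by symbol were 16 of the 144 list genes.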

Additional observations from a re-analysis of the deposited data

Results flagged for a closer look

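One value among the 10 genes stood apart from its group. Lymph node clone 4 held IL2RB at 0.928 CPM, from 26 counts, beside 1.52, 1.62 and 1.63 CPM in the other lymph node clones, a gap wide enough against the range of the 4 clones to pass Dixon's criterion. It was the 1 flag in 20 groups of values looked at, and chance flags about 1 in 20.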

How the results depend on the processing

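Against the control libraries, 226 of 240 alternative values of the 10 genes kept their direction and their side of the threshold, as did 784 of 804 for the named list genes. Those that did not for IL18, LTA and CSF1 are given with the genes above. Total-count scaling moved the all-gene median log2 fold change from 0.05 to 0.35 against CD21+ cells and from 0.05 to 0.51 against CD3+ cells. It changed the genes called from 4697 higher and 4372 lower to 6190 and 3093 against CD21+ cells, and from 4992 and 4765 to 6854 and 3114 against CD3+ cells. Under it LTB moved to 0.15 and STAT3 to 0.14 against CD21+ cells and TYK2 to 0.012 against CD3+ cells, each from a negative value, and the inhibitors called against CD3+ cells went from 10 to 16, with 10 higher. On the colony-stimulating factor list it added 1 higher call against CD21+ cells, and on the IL-10 family list it left 1 higher and 2 lower of 3 against CD3+ cells, where DESeq2 gave 1 higher and 3 lower. TNF against CD21+ cells ran from -0.0096 to 0.13 with single clones left out. Calls on the IL-10 family list against CD21+ cells went from 2 to 1 with DESeq2 and ranged from 1 to 3 with single clones left out (1 without lymph node clone 3 or spleen clone 2, 3 without lymph node clone 4 or spleen clone 1), and on the colony-stimulating factor list from 2 to 4 with all 8 libraries in 1 fit.

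Between lymph node and spleen clones, the sign held in every alternative run for IL10RA (0.054 to 0.52), IL4R (-0.29 to -0.070), IL2RB (0.76 to 1.03) and IL6R (0.95 to 5.70), none of which passed the test in any of them, and turned in at least 1 for the other 6 genes. With single clones left out the log2 difference ran from -0.26 to 0.20 for IL18, -0.25 to 0.061 for CSF1, -0.18 to 0.33 for LTA, -0.33 to 0.15 for LTB, -0.041 to 0.51 for IL21R and -0.46 to 0.19 for IL2RA, and limma-voom gave -0.029 for IL18. IL6R could not be tested without lymph node clone 1 or 2. Genes called went from 0 to 20 with DESeq2 and ranged from 0 to 1 with single clones left out, the 1 without lymph node clone 4. A replicate block on clone number, which the labels do not tie to a shared source, called 570 genes (420 higher in lymph node clones) and 1 of the 10, IL21R (0.67, adjusted p = 0.0331), and gave -0.15 for IL18. The numbers were not taken as pairs, since the labels give no pairing. Deviations of same-numbered clones from their group means correlated at 0.230 for number 1 and -0.0507 for number 2 over 13877 genes. With 2 spleen clones, the deviations of both are equal and opposite by construction, so these correlations cannot decide the pairing. The cause of these changes was not tested. Depth limits IL6R, IL18 and IL2RB most, with 28, 418 and 171 counts over the 6 clones.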
